A study of Homo sapiens with 6 samples.

Results

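The 4 genes PDE3A, DHRS3, TP53I11 and GSDMD were picked because a 10 kb window in each showed one of the clearest rises of PARP1 reads after progestin in an earlier look at these data. Their intervals in hg19 hold 48 of the 303641 windows into which the genome was divided, namely 34 for PDE3A, 7 for DHRS3, 5 for TP53I11 and 2 for GSDMD. The PARP1 ratios at 5 and 30 min to 0 min chose them, so all PARP1 changes given here describe that choice and are not evidence for it. The CDK2 libraries did not enter the choice. The windows within 500 kb on each side of an interval, 100 per gene, served as reference.

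PARP1 is a nuclear enzyme that builds chains of ADP-ribose on proteins, loosening chromatin and helping DNA repair and transcription. CDK2 is a cyclin-dependent kinase best known for driving DNA replication. The study asked how progestin activates PARP1 through CDK2 in breast cancer cells. The genes belong to unrelated pathways. PDE3A encodes a phosphodiesterase that breaks down cyclic AMP and is inhibited by cyclic GMP. DHRS3 encodes a reductase that turns retinal back into retinol and so limits retinoic acid. TP53I11 was described as a gene induced by p53. GSDMD encodes gasdermin D, whose fragment opens pores in the membrane during the inflammatory cell death called pyroptosis.

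All libraries came from T47D-MTVL cells, a derivative of the progesterone receptor-positive human breast cancer line T47D with an integrated reporter under the mouse mammary tumour virus promoter. Cells were kept in serum stripped of hormones with charcoal, then without serum. They were fixed without hormone (0 min) or after 5 or 30 min with 10 nM R5020, a synthetic progestin. Chromatin immunoprecipitation sequencing (ChIP-seq) with an antibody against PARP1 or CDK2 gave 1 library per antibody and time, so no value below has a replicate error and no difference between times was tested.

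The 6 libraries held between 40097131 and 63448449 reads, and ratios were scaled by these totals. A plain 95% interval of a ratio (exact conditional binomial) covers counting error only. The widened interval comes from the same formula after both counts were divided by the dispersion, which says how many times more the split of reads between 2 libraries varied from window to window than counting alone would give. The dispersion was 6.41 and 4.75 for PARP1 at 5 and 30 min against 0 min, and 24.5 and 14.4 for CDK2. The CDK2 library of 5 min was the most uneven. It held 0 reads in 3986 of the 278395 windows with a mean of at least 10 reads, against 4 to 588 in the other libraries. A CDK2 value at 5 min is therefore less precise than a PARP1 value. All 48 windows of the genes passed this minimum.

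Since the genes were grouped for a common gain, the start regions in RefSeq (GRCh38.p14) are shown to see whether they share sequence. The table had 7 entries for 3 of the genes, 1 for PDE3A and 3 each for DHRS3 and TP53I11. For each gene the 250 bases before the start with the most CG dinucleotides are printed 5′ to 3′, with the GC box GGGCGG (or CCGCCC) and the receptor hexamer AGAACA (or TGTTCT), where present, in capitals. The PDE3A entry is an internal start.
DHRS3 at chr1:12618211-12618460, strand -: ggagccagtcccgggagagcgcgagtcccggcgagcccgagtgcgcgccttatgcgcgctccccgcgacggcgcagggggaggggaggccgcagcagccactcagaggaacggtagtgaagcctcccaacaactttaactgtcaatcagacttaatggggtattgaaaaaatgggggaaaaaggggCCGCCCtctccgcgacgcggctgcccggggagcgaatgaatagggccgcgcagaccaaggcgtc
TP53I11 at chr11:44950884-44951133, strand -: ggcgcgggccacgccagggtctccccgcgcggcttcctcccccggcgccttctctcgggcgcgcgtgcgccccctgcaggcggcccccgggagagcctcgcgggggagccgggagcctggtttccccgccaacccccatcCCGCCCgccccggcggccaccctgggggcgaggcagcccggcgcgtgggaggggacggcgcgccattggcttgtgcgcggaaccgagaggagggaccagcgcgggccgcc
PDE3A at chr12:20571829-20572078, strand +: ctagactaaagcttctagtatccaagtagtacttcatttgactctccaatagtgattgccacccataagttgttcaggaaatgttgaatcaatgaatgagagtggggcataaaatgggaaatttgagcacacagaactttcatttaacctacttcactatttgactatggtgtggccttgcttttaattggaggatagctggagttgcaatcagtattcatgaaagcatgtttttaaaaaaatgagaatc
The region of TP53I11 held 36 CG dinucleotides, that of DHRS3 26 and that of PDE3A 0, each the richest entry of its gene by the choice made here. The other entries held 10 and 3 (DHRS3) and 5 and 22 (TP53I11), and the median of the 35116 entries was 11. A GC box, the usual site of SP family factors, was found in 2 of the 7 entries, the DHRS3 and TP53I11 regions above, and in 42.6% of all entries. The hexamer, an arm of the element that binds progesterone and glucocorticoid receptors, was in 0 of the 7 and in 12.4% of all. These entries are of another build than the read counts, so it was not determined whether these bases lie in the windows described here.

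In each gene the window whose PARP1 ratio to 0 min had the highest lower bound is called the lead window. It was chr12:20700001-20710000 in PDE3A, the 20th of 34 windows, and chr1:12670001-12680000 in DHRS3, the 6th of 7. It was chr11:44970001-44980000 in TP53I11, the 4th of 5, and chr8:144640001-144650000 in GSDMD, the 2nd of 2. DHRS3 and TP53I11 are read from the minus strand, so their lead windows lie towards the end of the interval where the gene starts. Exons and introns were not assigned, because the gene annotation at hand was of another build.

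The PDE3A lead window was rich in reads before hormone and richer in PARP1 at 30 min. It held 448, 488 and 1126 PARP1 reads at 0, 5 and 30 min. The 33 other windows of the gene held at most 299, 343 and 359 reads in these libraries. The depth-scaled ratio was 1.04 (95% interval 0.912 to 1.18, widened 0.741 to 1.46) at 5 min and 2.21 (1.98 to 2.47, widened 1.73 to 2.84) at 30 min. Between the 5 and 30 min libraries the ratio was 2.13 (widened 1.61 to 2.84). When the difference arose was not tested.

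Its flanks were lower after hormone. Summed over 100 windows, the flanks of PDE3A had PARP1 ratios of 0.875 at 5 min and 0.890 at 30 min. Set against them, the lead window had a local ratio of 1.19 (widened 0.847 to 1.67) and 2.48 (widened 1.95 to 3.19). The windows on either side did not share the high count at 30 min. The window before held 221, 211 and 255 PARP1 reads and the window after 271, 156 and 196.

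**Figure D1:**
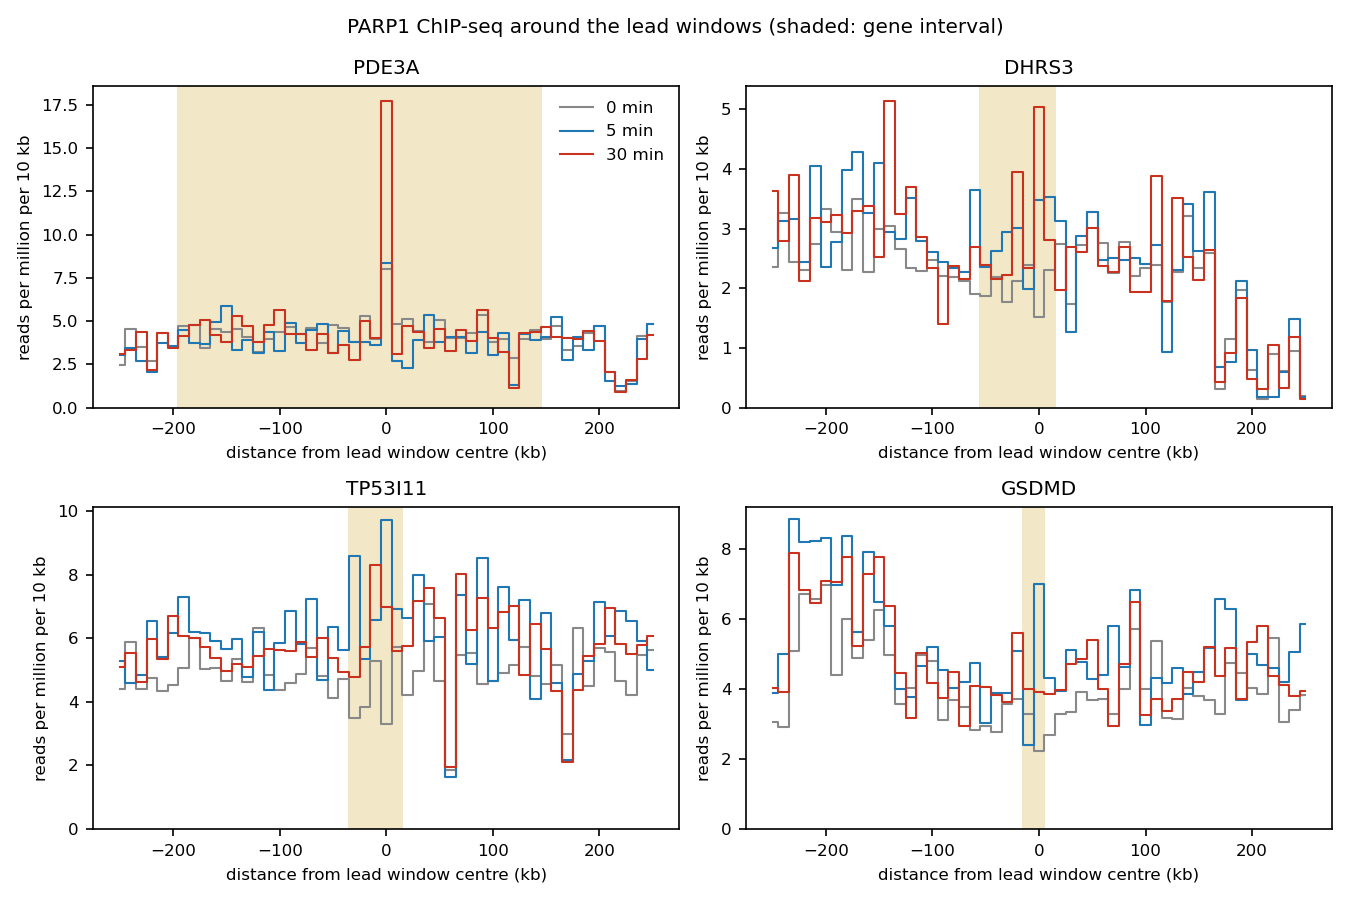
PARP1 reads scaled by library total (CPM) in each 10 kb window (vertical axis) against the distance in kb from the centre of the lead window (horizontal axis), for 0 min (grey), 5 min (blue) and 30 min (red), with the gene interval shaded. PDE3A shows a single tall window of 1126 reads at 30 min, while the lead windows of DHRS3, TP53I11 and GSDMD start below their surroundings at 0 min.

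DHRS3 had more PARP1 reads at both times, from a low start. Its lead window held 85, 203 and 320 PARP1 reads, the lowest of the 7 windows at 0 min and the highest at 30 min. The ratio was 2.28 (1.76 to 2.97, widened 1.17 to 4.70) at 5 min and 3.31 (2.60 to 4.26, widened 1.94 to 5.93) at 30 min. Against the flanks it was 2.07 (widened 1.06 to 4.26) and 3.05 (widened 1.79 to 5.45). The other 6 windows together had 1.18 (widened 0.915 to 1.52) and 1.15 (widened 0.932 to 1.43) against the flanks. The next highest window at 30 min was chr1:12650001-12660000, with 118, 176 and 250 PARP1 reads.

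TP53I11 had its highest PARP1 count at 5 min. The lead window held 184, 568 and 444 PARP1 reads, again the lowest of the gene at 0 min. The ratio was 2.94 (2.49 to 3.5, widened 1.91 to 4.65) at 5 min and 2.12 (1.78 to 2.53, widened 1.44 to 3.17) at 30 min. Between 5 and 30 min it was 0.721 (widened 0.516 to 1.00). A second window of the gene, chr11:44940001-44950000, held 194, 502 and 303 PARP1 reads, so it too was highest at 5 min. The flanks were higher as well, with ratios of 1.20 and 1.14, and the local ratio of the lead window was 2.45 (widened 1.60 to 3.88) and 1.87 (widened 1.27 to 2.79). Without the lead window the gene had a local ratio of 1.25 (widened 1.02 to 1.53) at 5 min and 1.17 (widened 0.984 to 1.4) at 30 min.

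At GSDMD the PARP1 count was highest at 5 min and lower again at 30 min. The lead window held 125, 410 and 248 PARP1 reads, a ratio of 3.13 (2.55 to 3.85, widened 1.86 to 5.49) at 5 min and 1.74 (1.40 to 2.18, widened 1.07 to 2.90) at 30 min. Between 5 and 30 min the ratio was 0.558 (widened 0.361 to 0.850). Its neighbours by order in the RefSeq gene table are ZC3H3 and MROH6. The flanks had PARP1 ratios of 1.29 and 1.14. Against them the lead window had 2.43 (widened 1.45 to 4.27) and 1.53 (widened 0.937 to 2.54). The only other window of the gene went the opposite way at 5 min, with 184, 140 and 253 PARP1 reads.

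The windows just outside the intervals had smaller PARP1 changes than the lead windows. Only the lead windows were chosen for high PARP1 ratios, so this describes the choice. At PDE3A the windows on either side of the interval held 195, 209 and 219 reads before it and 220, 237 and 296 after it. At DHRS3 they held 106, 213 and 171 before and 153, 183 and 125 after. At TP53I11 they held 263, 329 and 313 before and 235, 389 and 366 after. The window before DHRS3 came nearest to a doubling, with a depth-scaled ratio of 1.92 at 5 min. At GSDMD the counts were 207, 297 and 355 before and 150, 252 and 244 after.

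Over all 48 windows a PARP1 ratio of at least 2 was seen in 4 windows at 5 min, against 0.930% of all windows compared, and in 3 windows at 30 min, against 0.452%. The genes were chosen on this contrast, so these counts describe the choice. The 4 at 5 min were the lead windows of DHRS3, TP53I11 and GSDMD and the second window of TP53I11. The 3 at 30 min were the lead windows of PDE3A, DHRS3 and TP53I11. PARP1 ratios of at most 0.5 occurred in PDE3A only, which holds 34 of the 48 windows. They were seen in 2 windows at 5 min (4.17% of the 48, against 1.79% of all windows). At 30 min 1 window had such a ratio (2.08% against 0.635%). Of the 100 flanking windows of PDE3A, 3 at 5 min and 1 at 30 min were at or below 0.5 too. The median ratio of the 48 windows was 1.00 at 5 min and 1.01 at 30 min.

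The level of the lead window within each library, as its reads over those of the median flanking window, does not depend on the 0 min library except at 0 min itself. It is not free of the choice, since the PARP1 reads at 5 and 30 min also chose the lead windows. High PARP1 levels at these times therefore describe the choice. For PARP1 at PDE3A the level was 2.05, 2.46 and 5.30 at 0, 5 and 30 min, above all 100 flanking windows each time. At DHRS3 it was 0.659, 1.31 and 1.96, and 67, 11 and 1 of the 75 flanking windows that passed the minimum had more reads. The flank of DHRS3 runs into windows with few or no reads, which is why 25 were left out here.

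At TP53I11 the PARP1 level was 0.678, 1.64 and 1.26, with 96, 0 and 7 of 100 flanking windows higher. At GSDMD it was 0.572, 1.39 and 0.867, with 99, 7 and 72 of 100 higher. So at 30 min GSDMD lay below its median flanking window, although its ratio to 0 min was above 1. In DHRS3, TP53I11 and GSDMD, but not in PDE3A, the PARP1 count at 0 min lay near the bottom of its surroundings, and this library is the denominator of the ratios that chose the genes. The part of this low start in the ratios was not tested.

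**Figure D2:**
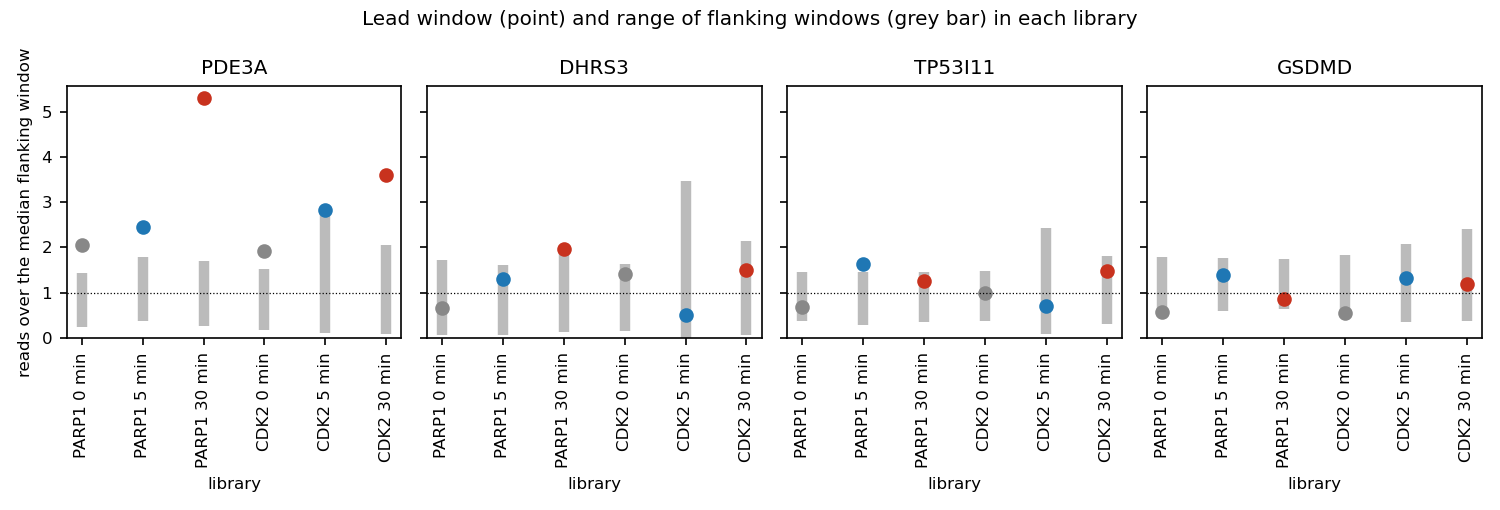
Reads of the lead window over the median flanking window (vertical axis) in each of the 6 libraries (horizontal axis), as points, with grey bars from the lowest to the highest flanking window. PDE3A lies above its bar in all 6 libraries, and GSDMD lies near the bottom of its bar at 0 min for both antibodies, with 0.572 for PARP1 and 0.552 for CDK2.

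CDK2, which took no part in the choice, was measured at the same windows to see where the kinase stood when PARP1 counts were high. At the PDE3A lead window CDK2 had 320, 621 and 425 reads at 0, 5 and 30 min. It was the window with the most CDK2 reads of the 34 at each time. The level over the median flanking window was 1.92, 2.83 and 3.60, and none of the 100 flanking windows was higher in any CDK2 library. The excess at this place was therefore present for both antibodies before hormone. An input library was not analysed here, so how much of that excess an input would show was not tested.

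The CDK2 ratio at PDE3A to 0 min was 1.51 (1.32 to 1.74, widened 0.748 to 3.22) at 5 min and 1.49 (1.29 to 1.73, widened 0.833 to 2.72) at 30 min. Over the whole interval CDK2 was lower at 30 min along with its flanks, with ratios of 0.841 and 0.798. The local ratio of the lead window at 30 min was 1.87 (widened 1.04 to 3.41), while the 33 other windows had 1.01 (widened 0.870 to 1.18). Of the 100 flanking windows, 26 at 5 min and 5 at 30 min had a higher CDK2 ratio to 0 min than the lead window. So did 17.5% and 16.8% of all windows compared. At this place CDK2 and PARP1 were both higher against the flanks at 30 min. The depth-scaled ratio of CDK2 to PARP1 there was 0.883, 1.29 and 0.597 at 0, 5 and 30 min, and 0.909, 1.08 and 0.686 (widened 0.429 to 1.07 at 30 min) against the flanks. The PARP1 counts in these ratios chose the window, so they are a description only.

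At DHRS3 CDK2 did not follow PARP1 at 5 min. The lead window held 150, 62 and 164 CDK2 reads, so that the count was lowest at 5 min. The ratio was 0.323 (0.236 to 0.437, widened 0.0436 to 1.61) at 5 min and 1.23 (0.980 to 1.55, widened 0.484 to 3.17) at 30 min. At 5 min 15 of the 75 flanking windows that passed the minimum also had a CDK2 ratio of at most 0.5, and 68 were above the lead window. The window before it, chr1:12660001-12670000, was also low at 5 min, with 88, 24 and 94 CDK2 reads. The window after it, chr1:12680001-12690000, was not, with 145, 214 and 123. Of the 7 windows of the gene, 4 had a CDK2 ratio above 1 at 5 min and 3 below. Against the flanks the lead window had 1.02 (widened 0.401 to 2.63) at 30 min. Before hormone the depth-scaled ratio of CDK2 to PARP1 in this window was 2.18 (widened 1.21 to 4.07). Its denominator is the low PARP1 count of 85 reads that entered the choice of the gene, so this value is a description only.

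At TP53I11 the CDK2 count was lowest at 5 min and highest at 30 min. The lead window held 220, 194 and 368 reads. The ratio was 0.688 (0.565 to 0.839, widened 0.230 to 2.02) at 5 min and 1.88 (1.59 to 2.23, widened 0.961 to 3.81) at 30 min. The flanks had a ratio of 1.27 at 30 min, which left a local ratio of 1.48 (widened 0.756 to 3.0). Of the 100 flanking windows, 73 at 5 min and 11 at 30 min had a higher CDK2 ratio than the lead window. A ratio of at least 2 at 30 min was seen in 9 of them. Another window of the gene, chr11:44950001-44960000, had a CDK2 ratio of 2.07 at 30 min, with 204, 210 and 376 reads. At 0 min the CDK2 level of the lead window was 0.991 times its median flanking window, unlike the low PARP1 level there. That low PARP1 count entered the choice of the gene, so the contrast is a description only.

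At GSDMD CDK2 was higher at both times. The lead window held 96, 278 and 268 CDK2 reads, a ratio of 2.26 (1.79 to 2.88, widened 0.670 to 9.86) at 5 min and 3.14 (2.48 to 4.01, widened 1.24 to 9.09) at 30 min. At 0 min 98 of 100 flanking windows had more CDK2 reads, at 5 min 24 and at 30 min 31. So CDK2, like PARP1, started from one of the lowest windows of its surroundings. The flanks had ratios of 0.907 and 1.47, and the local ratio was 2.49 (widened 0.738 to 10.9) and 2.14 (widened 0.844 to 6.18). At 30 min 21 of the 100 flanking windows also had a CDK2 ratio of at least 2, and 3 were above the lead window.

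**Figure D3:**
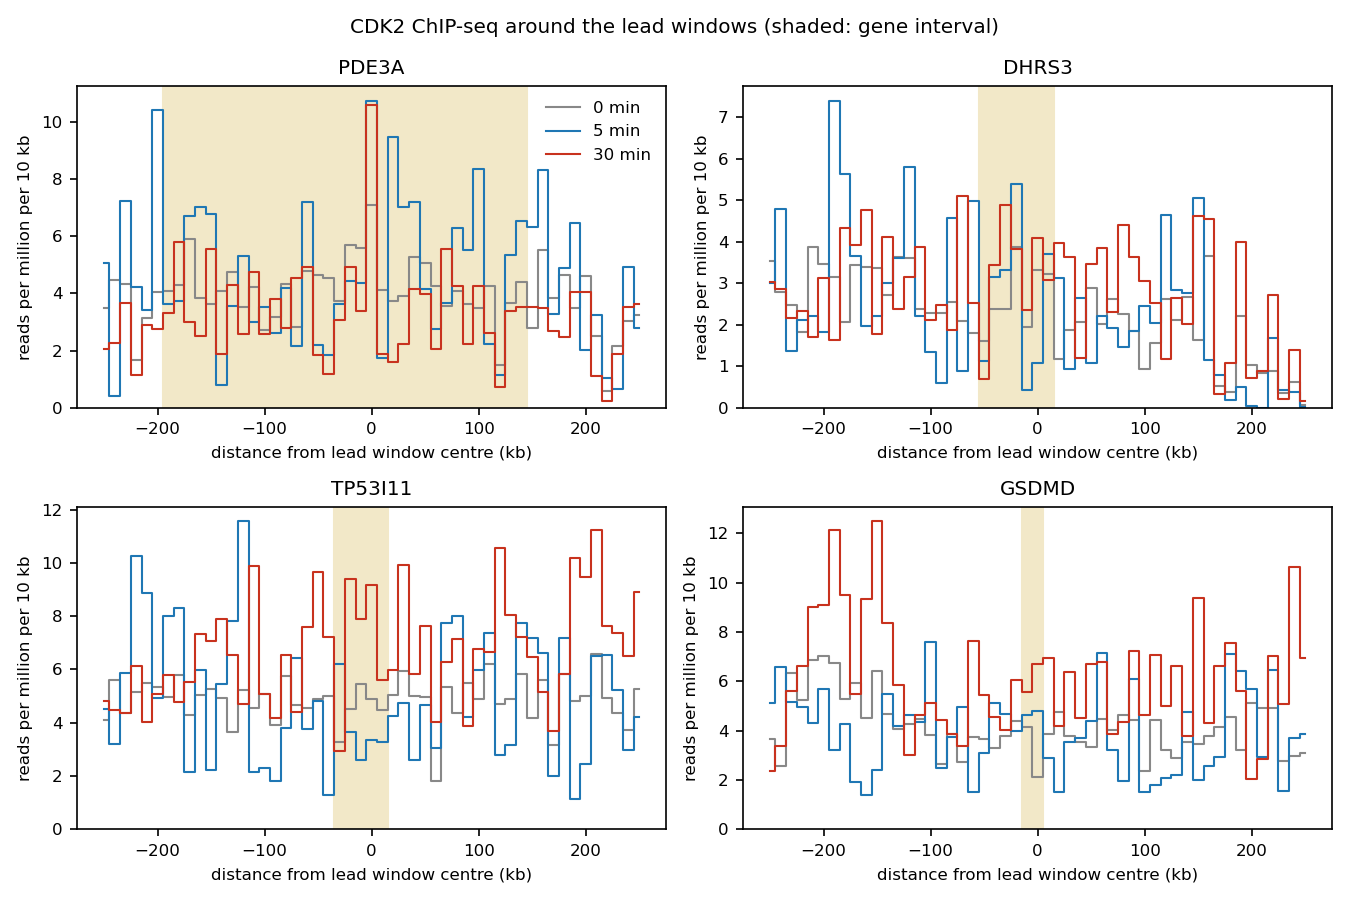
CDK2 reads scaled by library total (CPM) in each 10 kb window (vertical axis) against the distance in kb from the lead window's centre (horizontal axis), for 0 min (grey), 5 min (blue) and 30 min (red), with the gene interval shaded. The PDE3A lead window stands highest of its gene at all 3 times, and the 5 min line jumps between neighbouring windows, as from 621 to 100 reads at PDE3A.

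Only at GSDMD at 30 min did the widened CDK2 interval of a lead window lie above 1, and it did not do so once the flanks were used as reference. At PDE3A the reverse held, with a widened interval above 1 against the flanks only. For no lead window did the widened CDK2 interval at 5 min leave out 1. A ratio of the 2 antibodies also holds their different yields.

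**Figure D4:**
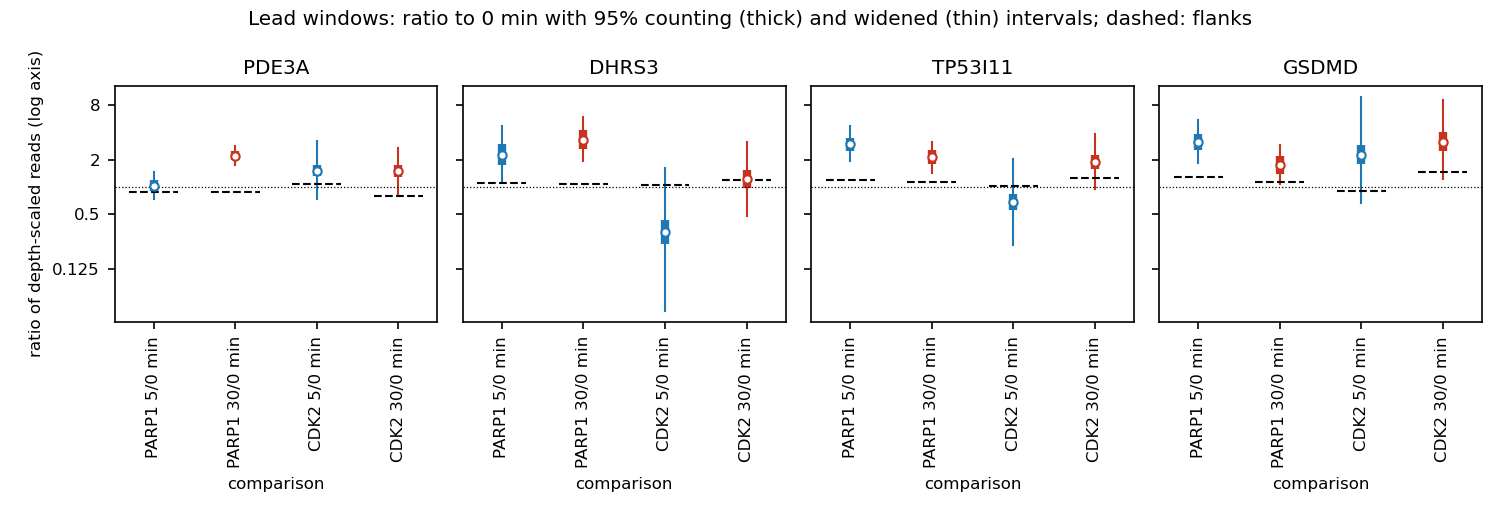
Ratio of depth-scaled reads to 0 min in the lead windows (vertical log axis) for both antibodies at 5 min (blue) and 30 min (red), with 95% counting intervals as thick bars and widened intervals as thin lines. Dashed lines give the ratio of the flanks, and at DHRS3 PARP1 lies at 2.28 and CDK2 at 0.323 at 5 min.

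Over all 48 windows CDK2 ratios of at least 2 were seen in 3 windows at 5 min (6.25% of the 48, against 6.22% of all windows) and in 3 at 30 min (6.25% against 5.50%). Ratios of at most 0.5 were seen in 7 at 5 min (14.6% against 16.2%) and in 8 at 30 min (16.7% against 11.6%). These shares lie near the background, so the counts give no result about the genes as a group. The median CDK2 ratio of the 48 windows was 0.972 at 5 min and 0.915 at 30 min. At 5 min the 3 high windows were the GSDMD lead window and 2 windows of PDE3A, chr12:20720001-20730000 with 548 against 168 reads and chr12:20800001-20810000 with 484 against 157.

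At 30 min they were the GSDMD lead window, the TP53I11 window named above and chr1:12640001-12650000 in DHRS3, with 196 against 107 reads. Of the 8 low windows at 30 min 7 lay in PDE3A, which holds 34 of the 48 windows. That is 20.6% of its windows, and 21 of its 100 flanking windows were at or below 0.5 too. The lowest was chr12:20660001-20670000, with 205, 107 and 47 CDK2 reads and 256, 260 and 229 PARP1 reads. The PDE3A window chr12:20820001-20830000 was low in all 6 libraries. It held 159, 78 and 73 PARP1 reads and 67, 65 and 29 CDK2 reads.

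**Figure D5:**
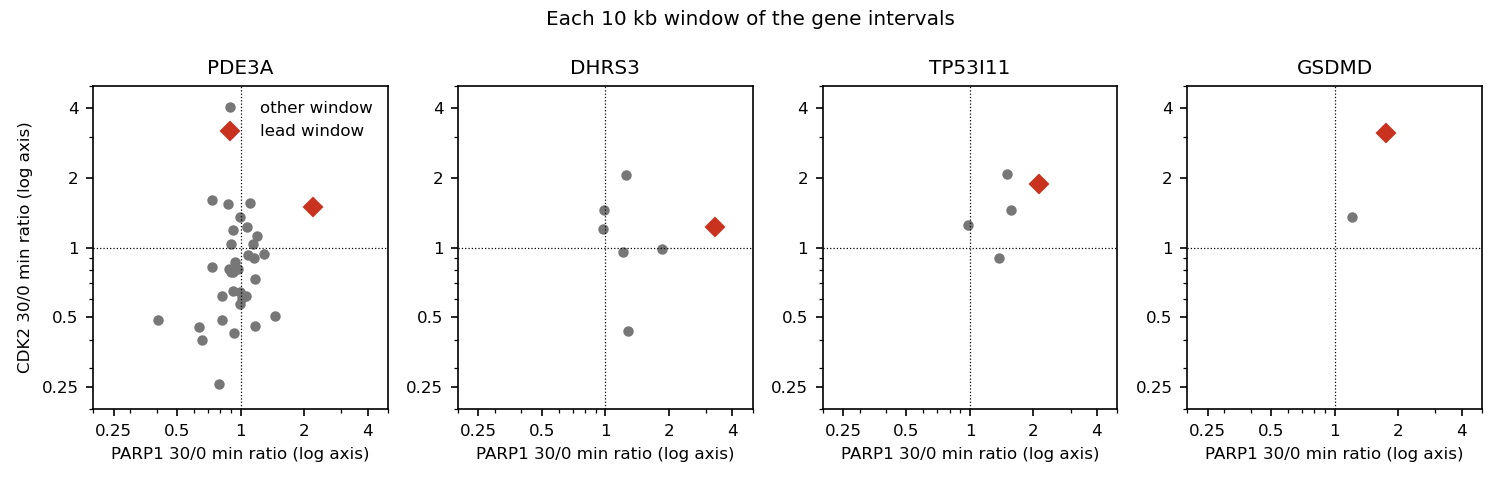
Ratio of CDK2 (vertical log axis) against that of PARP1 (horizontal log axis) at 30 min to 0 min for each of the 48 windows, with lead windows as red diamonds. The lead windows lie to the right of the other windows of their gene, as chosen, with CDK2 ratios of 1.49, 1.23, 1.88 and 3.14 from PDE3A to GSDMD.

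Whole intervals changed less than lead windows. For PARP1 the lead windows were chosen for high ratios, so this describes the choice. For PARP1 against the flanks PDE3A had 1.04 (widened 0.964 to 1.13) at 5 min and 1.15 (1.08 to 1.23) at 30 min. The former became 0.982 with flanks of 1000 kb. DHRS3 had 1.27 (1.01 to 1.62) and 1.36 (1.12 to 1.66), TP53I11 1.43 (1.20 to 1.72) and 1.28 (1.09 to 1.5), and GSDMD 1.32 (0.917 to 1.92) and 1.25 (0.906 to 1.73). Without its lead window GSDMD had 0.564 (widened 0.308 to 1.02) at 5 min, on the 1 window left. For CDK2 the widened interval of the whole gene against its flanks held 1 for all 4 genes at both times, with local ratios from 0.813 (TP53I11 at 5 min) to 1.66 (GSDMD at 5 min).

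Windows elsewhere whose pattern over the 6 libraries was nearest to a lead window were sought by the Euclidean distance of log2 levels over the local median. Nearest to PDE3A was chr2:230040001-230050000, at a distance of 0.779, with 370, 404 and 813 PARP1 and 175, 306 and 299 CDK2 reads. It was followed by chr17:33470001-33480000 (0.887) and chr17:21220001-21230000 (0.915). Like PDE3A these windows had an excess in every library, and PARP1 was highest at 30 min. The search picked windows for such likeness, so this describes the search.

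Nearest to DHRS3 were chrX:36350001-36360000 (0.527), chr2:62270001-62280000 (0.548) and chr8:115450001-115460000 (0.557). Nearest to TP53I11 was chr1:202650001-202660000 (0.327), with 243, 544 and 405 PARP1 and 221, 194 and 315 CDK2 reads, then chr14:46290001-46300000 (0.360) and chr11:120780001-120790000 (0.387). Nearest to GSDMD were chr9:85120001-85130000 (0.408), chr13:84180001-84190000 (0.446) and chr2:20050001-20060000 (0.454). The nearest window was thus farther away for PDE3A than for the other 3 genes, among 37841 windows of at least 0.5 times its mean count, against 152130 to 258399 for the others.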

How the data were processed

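The submitters' processing notes name Bowtie 1.0.0 and the genome build hg19 (GRCh37) for the 6 ChIP-seq libraries. The authors deposited whole read counts in consecutive 10 kb windows, 1 column per library, without normalization. Read filters, duplicates and the counting tool are not given in the sources used here. Here counts were scaled by library totals of 40097131 to 63448449 reads. Ratios carry exact conditional binomial 95% intervals, and widened ones after division by a robust dispersion around the local split of reads (20 windows on each side). The dispersion also holds real local differences. Local ratios divide by the sum of the flanks. A call was a ratio of at least 2 or at most 0.5. With 1 library per group no p-value was computed. The plain intervals were tested on simulated counts with counting error only, and the widened intervals were not tested.

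The genes, and the lists and windows used, were chosen with earlier results of these data known. Windows named in the text are the lead windows, their neighbours, windows past a ratio of 2 or 0.5, and the 3 windows most alike (at least 100 kb apart). The window chr1:12650001-12660000 of DHRS3 lies outside that rule and was chosen after its values were seen. ChIP counts hold no expression, so the cell line was not checked against marker genes. The table of gene positions was of build GRCh38.p14, so it served only for the order of neighbouring genes, and a list of related pathway genes was not evaluated. TMM factors came from edgeR 4.0.16 and size factors from DESeq2 1.42.0, used for scaling only, with R 4.3.3, Python 3.11.15, numpy 2.4.6, scipy 1.17.1 and pandas 2.3.3. Positions are 1-based.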

Additional observations from a re-analysis of the deposited data

Results flagged for a closer look

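At 5 min the antibodies went opposite ways in 2 lead windows, with counting intervals on opposite sides of 1. At DHRS3 the ratio to 0 min was 2.28 for PARP1 and 0.323 for CDK2. At TP53I11 it was 2.94 for PARP1 and 0.688 for CDK2. PARP1 gains chose these windows, so only the CDK2 side of the contrast is free of the choice. The median CDK2 ratio at 5 min over all windows compared was 0.955. Of these windows 92.2% had a higher CDK2 ratio than the DHRS3 lead window and 70.9% a higher one than the TP53I11 lead window. With 1 library per antibody and time the difference was not tested, and the widened CDK2 intervals of both lead windows include 1. The opposite directions did not extend to the second TP53I11 window, chr11:44940001-44950000. There the ratio at 5 min was 2.47 for PARP1 and 1.91 (widened 0.695 to 6.02) for CDK2, with 147 CDK2 reads at 0 min and 359 at 5 min.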

How the results depend on the processing

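No paired analysis was possible because each antibody and time had 1 library. The 24 ratios of lead windows kept their direction, but for CDK2 at PDE3A between 30 and 5 min (0.986, and 1.03 after thinning), under TMM factors, size factors, thinning of all libraries to the smallest total, scaling without the 1% of windows with the highest means and scaling on the windows of lowest mean. They stayed within their counting intervals except under the last, where CDK2 at 5 min was 1.90 at PDE3A and 0.862 at TP53I11. That scaling raised all CDK2 log2 ratios to 0 min by 0.32 at 5 min and 0.14 at 30 min. Lead windows over flanks stayed within their intervals with flanks of 250 or 1000 kb and with the median flanking window. For whole intervals over flanks, PDE3A moved with flanks of 1000 kb to 0.982 and 1.09 for PARP1 at 5 and 30 min and to 0.951 for CDK2 at 30 min. With flanks of 250 kb it moved to 1.12 for PARP1 at 30 min. The median flanking window gave PDE3A 1.20 for PARP1 at 30 min and 1.08 for CDK2 at 5 min, and DHRS3 1.08 for CDK2 at 5 min. Without the lead window PARP1 was 1.08 (PDE3A), 1.15 (DHRS3), 1.17 (TP53I11) and 1.06 (GSDMD) at 30 min, and 1.25 (TP53I11) and 0.564 (GSDMD) at 5 min. CDK2 was 1.05 (DHRS3) and 1.24 (GSDMD) at 5 min and 1.01 (PDE3A) and 0.917 (GSDMD) at 30 min. The cause was not tested beyond the leaving out itself.

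Counts of all windows past a fold moved with the fold by construction. At 1.5 times, 19967 windows were higher and 25667 lower for PARP1 at 5 min, 12312 and 14507 at 30 min, 50183 and 76480 for CDK2 at 5 min, and 46440 and 65861 at 30 min. At 3 times the counts were 223 and 682, 142 and 217, 2574 and 22877, and 2182 and 12117. With a minimum mean of 100 reads PARP1 had 1501 higher and 2758 lower windows at 5 min and 526 and 628 at 30 min, since fewer windows were compared. With no minimum it had 2328 and 3006 at 30 min. Depth limits single windows to about the widths of the counting intervals given, and the dispersion of CDK2 at 5 min widens them further.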
